A study of Mus musculus with 31 samples.

Results

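Folate and one-carbon metabolism was followed through 8 genes, Mthfd1, Mthfd1l, Mthfd2, Shmt1, Shmt2, Mtr, Mtrr and Slc19a1, picked by symbol from the 48795 genes of a count table of mouse brain. All 8 passed the filter on low counts, which left 19529 genes for testing. Total RNA of homogenised, hemisected brains was sequenced in 31 libraries, 13 labelled control and 18 labelled deltamethrin. Deltamethrin, a pyrethroid, is an insecticide that slows the closing of sodium channels in nerve cells, and the title of the series places the exposure during development. Strain, sex, dose, age and collection time are not given in the sources used here, no genotype is named for either group, and nothing in the labels says whether libraries came from separate animals. The p-values below therefore measure the spread between these libraries, which may in part be technical.

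Folate carries single carbon units between serine, glycine, formate and homocysteine. Serine hydroxymethyltransferase moves a carbon from serine to tetrahydrofolate, the MTHFD enzymes shift that carbon between oxidation states, and the carbon then serves purine, thymidylate and methionine synthesis. The pathway runs in parallel in cytosol and mitochondria, with formate passing between the compartments, and the developing nervous system depends on it for neural tube closure and methylation.

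Libraries held 17570311 to 35716869 counts in control and 24563143 to 38680621 in deltamethrin. The mitochondrial ribosomal RNAs took 8.49 to 40.2% of counts in control and 7.32 to 26.3% in deltamethrin. Control replicate 2 stood apart, with the lowest total and the highest mitochondrial share. Log2 fold changes of members and other pathway genes named below that moved by over 1.5 times without it are also given without it. Those of cell type markers are given only with it, and how far they depend on this library was not tested. All 5 neuron, 5 astrocyte and 5 oligodendrocyte markers were detected in every library, and 5 liver markers reached at most 14 counts. Such markers measure a homogenate, in which fewer cells of a type and less RNA per cell cannot be told apart.

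Levels of different genes were compared as CPM (the count scaled by the TMM-adjusted library size) divided by the kilobases of exon, averaged over 31 libraries. The exons of all annotated transcripts of a gene were merged for this length. Expressed transcripts may be shorter, so the order of genes with close levels depends on this choice. Mthfd1 stood highest at 6.34 ± 0.697 (SD), followed by Mthfd1l at 4.07 ± 0.756 and Shmt2 at 3.56 ± 0.671. Slc19a1 had 2.38 ± 0.255, Mtrr 1.91 ± 0.187, Mthfd2 1.76 ± 0.226 and Mtr 1.33 ± 0.261 on the same scale. Shmt1 was lowest at 0.589 ± 0.103, and its highest library (0.828) lay below the lowest of Mtr (0.844). Mtr and Shmt1 were the only neighbours in this order whose ranges did not overlap. Mthfd1 lay above Mthfd1l in 30 of 31 libraries, and control replicate 2 was the exception. Mthfd1l and Shmt2 were less clearly ordered, with Mthfd1l higher in 22 of 31, as Mtrr was above Mthfd2 in 22 of 31. Mean levels per length ran from the 22.5th percentile of all tested genes for Shmt1 to the 68.4th for Mthfd1.

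**Figure D1:**
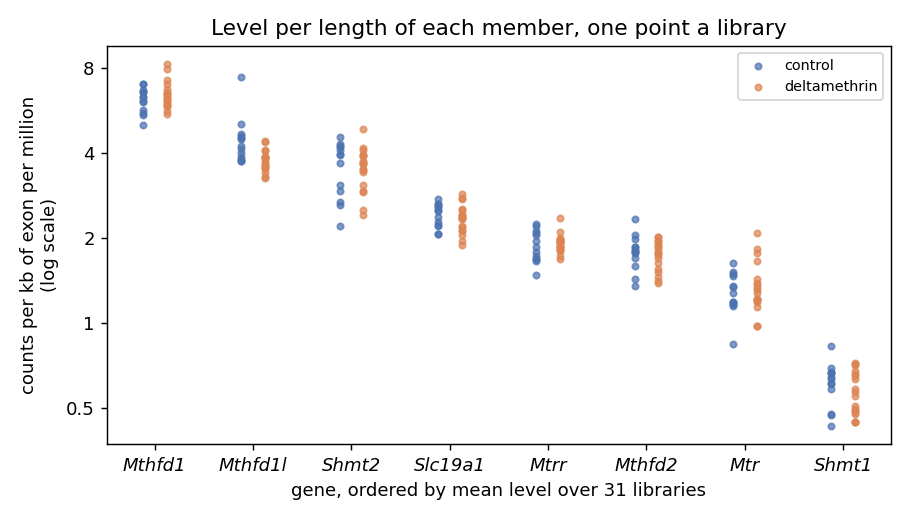
Level of each member as CPM per kilobase of exon (log axis), 1 point per library, 13 control and 18 deltamethrin, genes ordered by their mean over all libraries. Mthfd1 averaged 6.34 and Shmt1 0.589, and the Mthfd1l point at 7.43 is control replicate 2.

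The deltamethrin comparison asked whether the exposure altered expression of these genes. None of the 8 members differed after adjustment over all genes: 0 had an adjusted p under 0.05 by edgeR's quasi-likelihood test, against 0% of all genes tested. At an unadjusted p under 0.05 there was 1 member, Mthfd1l, against 4.37% of all genes. DESeq2 and limma voom also gave 0 after adjustment and 1 at an unadjusted p under 0.05. The median log2 fold change, deltamethrin over control, was -0.032 over the members and 0.0014 over all genes tested, with 3 members above 0 and 5 below (2 above 0 without control replicate 2).

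**Figure D2:**
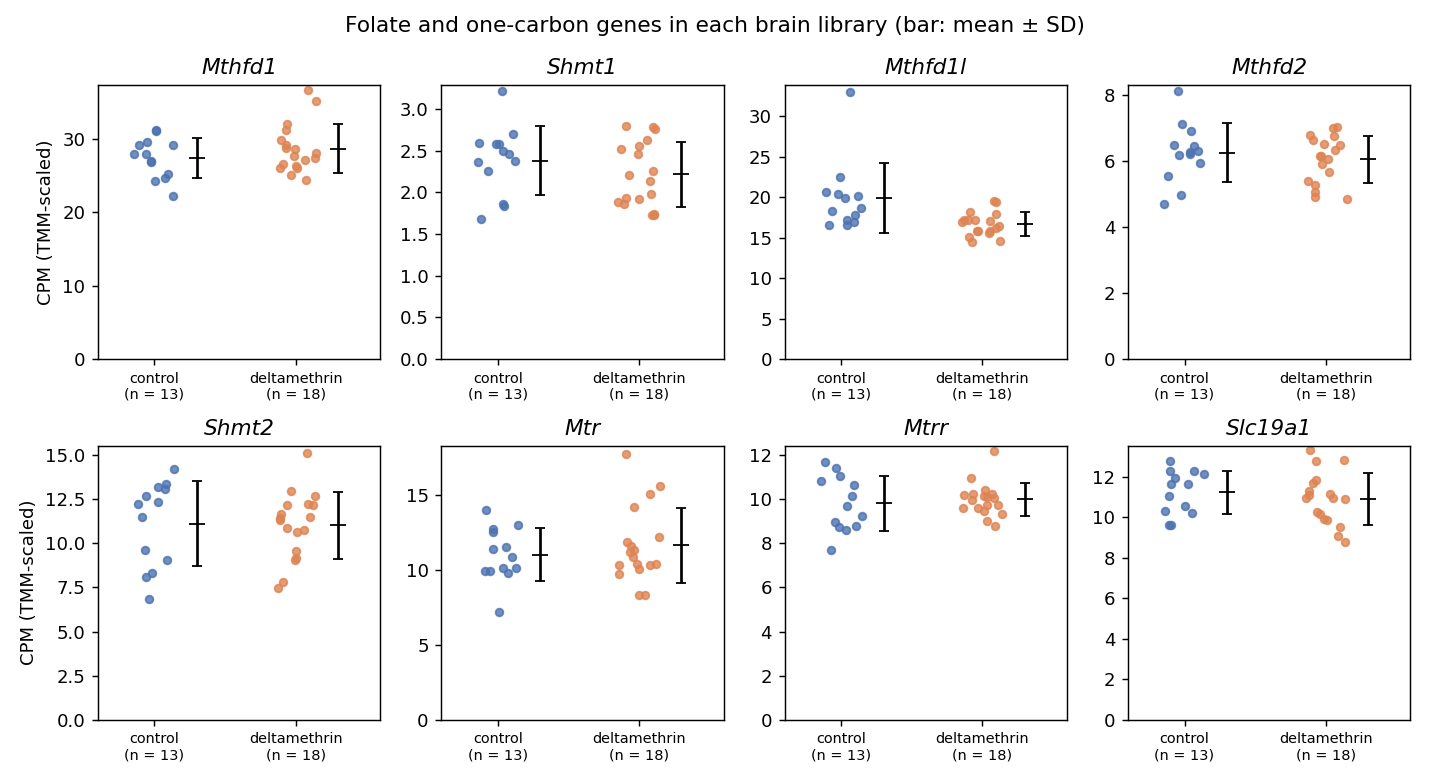
CPM of each member in every library, 13 control and 18 deltamethrin, with the mean and SD of each group as a bar. The groups overlap for all 8 genes. The control point of Mthfd1l at 33.0 CPM is control replicate 2, and the other controls reach 22.5 CPM.

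Mthfd1l encodes the mitochondrial monofunctional 10-formyltetrahydrofolate synthetase, which releases formate for export to the cytosol. The gene (ENSMUSG00000040675, protein coding, chromosome 10, 3973118 to 4167081, plus strand) shares no exonic base with another annotated gene. Control libraries ran from 16.6 to 33.0 CPM with a median of 18.7, and deltamethrin libraries from 14.5 to 19.5 CPM with a median of 16.7. Most deltamethrin libraries were low, 16 of 18 lying below the control median, and 9 lay below every control library. The groups still overlapped, since the lowest controls stood at 16.6 CPM. Means were 19.9 ± 4.33 CPM (SD, n = 13) and 16.7 ± 1.46 CPM (SD, n = 18), a log2 fold change of -0.25 ± 0.07 (SE; 95% interval -0.39 to -0.098). Its unadjusted p was 0.00180, rank 20 of 19529, and its adjusted p 0.813 (edgeR).

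Control replicate 2 had 33.0 CPM of Mthfd1l, the highest of all libraries. Its raw count of 355 was the lowest for this gene and its TMM factor of 0.613 the lowest of all libraries, so this level depends on the scaling. Without it the 12 control libraries averaged 18.8 ± 1.89 CPM and ran from 16.6 to 22.5, with 5 of them above every deltamethrin library. The log2 fold change was then -0.17 ± 0.05 (SE; 95% interval -0.28 to -0.066), with an unadjusted p of 0.00240 and an adjusted p of 0.926 (edgeR). Fitted with the mitochondrial rRNA share as a covariate, it lay at -0.23 (unadjusted p = 0.000955, adjusted 0.466, edgeR). Covariates for the choroid plexus and the cerebellar granule cell markers left it at -0.25 each.

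Mthfd1 encodes the cytosolic trifunctional enzyme that carries the dehydrogenase, cyclohydrolase and synthetase steps (ENSMUSG00000021048, protein coding, chromosome 12, 76255298 to 76319803, plus strand). Its control libraries ran from 22.3 to 31.3 CPM (median 27.96) and its deltamethrin libraries from 24.5 to 36.7 CPM (median 27.92). The medians nearly coincided, and 3 deltamethrin libraries exceeded every control. Between the group fits the log2 fold change was 0.064 ± 0.06 (SE; 95% interval -0.056 to 0.18; adjusted p = 0.825, edgeR), which as a ratio spans 0.962 to 1.14. Without control replicate 2 it was 0.040. Here 37 exonic bases are shared with Gm47525 on the opposite strand, and reads of the 2 genes there cannot be told apart without strand.

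Mthfd2 encodes the mitochondrial dehydrogenase and cyclohydrolase, best known from embryonic and dividing cells (ENSMUSG00000005667, protein coding, chromosome 6, 83305691 to 83325908, minus strand). It ran from 4.71 to 8.15 CPM in control (median 6.30) and from 4.85 to 7.03 CPM in deltamethrin (median 6.17). All deltamethrin libraries lay inside the control range, and the log2 fold change was -0.047 ± 0.07 (SE; 95% interval -0.19 to 0.10; adjusted p = 0.884, edgeR).

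Shmt1 and Shmt2 encode the cytosolic and the mitochondrial serine hydroxymethyltransferase. Shmt1 (ENSMUSG00000020534, protein coding, chromosome 11, 60788104 to 60811718, minus strand) had only 20 to 116 counts per library. Its control libraries ran from 1.68 to 3.21 CPM (median 2.46) and its deltamethrin libraries from 1.73 to 2.80 CPM (median 2.17), again inside the control range. This gave a log2 fold change of -0.11 ± 0.10 (SE; 95% interval -0.30 to 0.086; adjusted p = 0.823, edgeR). A stretch of 184 exonic bases (4.74% of its exons) is shared with Smcr8 on the opposite strand, so part of this low count is uncertain.

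Shmt2 (ENSMUSG00000025403, protein coding, chromosome 10, 127517123 to 127522444, minus strand) ran from 6.87 to 14.2 CPM in control (median 12.2) and from 7.48 to 15.1 CPM in deltamethrin (median 11.4). Although 14 of 18 deltamethrin libraries lay below the control median, the means were 11.1 ± 2.40 (SD, n = 13) and 11.04 ± 1.90 CPM (SD, n = 18). The log2 fold change was -0.019 ± 0.10 (SE; 95% interval -0.22 to 0.18; adjusted p = 0.968, edgeR), with a sign that turned without scaling factors (0.0060) and a value of -0.062 without control replicate 2. It shares 32 exonic bases with Ndufa4l2 on the opposite strand.

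Mtr encodes methionine synthase, the cobalamin enzyme that remethylates homocysteine, and Mtrr the reductase that keeps its cobalamin active. Mtr (ENSMUSG00000021311, protein coding, chromosome 13, 12182712 to 12258113, minus strand) ran from 7.20 to 13.95 CPM in control (median 10.9) and from 8.30 to 17.7 CPM in deltamethrin (median 11.03). Of the deltamethrin libraries 4 exceeded every control, the highest being replicates 1 and 2. Its log2 fold change was 0.078 ± 0.10 (SE; 95% interval -0.12 to 0.28; adjusted p = 0.860, edgeR). Mtrr (ENSMUSG00000034617, protein coding, chromosome 13, 68560780 to 68582149, minus strand) ran from 7.71 to 11.7 CPM in control (median 9.69) and from 8.79 to 12.2 CPM in deltamethrin (median 9.999). Its log2 fold change was 0.023 ± 0.06 (SE; 95% interval -0.093 to 0.14; adjusted p = 0.931, edgeR), and -0.0020 without control replicate 2.

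Slc19a1 encodes the reduced folate carrier, which imports folates across the plasma membrane (ENSMUSG00000001436, protein coding, chromosome 10, 77032241 to 77061002, plus strand). Control libraries ran from 9.62 to 12.8 CPM (median 11.6) and deltamethrin libraries from 8.75 to 13.3 CPM (median 10.9). Here 13 of 18 deltamethrin libraries lay below the control median, 3 lay below every control and 2 others above every control. The log2 fold change was -0.045 ± 0.06 (SE; 95% interval -0.17 to 0.079; adjusted p = 0.868, edgeR), and -0.0068 without scaling factors.

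Ratios within a library largely cancel the scaling and were compared without a test. They are differences of log2 CPM, not divided by exon length, so they compare the groups and do not rank the 2 genes. Per length Mtrr stood above Mtr, although its ratio below is negative. The log2 ratio of Mthfd1l to Mthfd1, both with a synthetase, was -0.48 ± 0.34 in control (SD, n = 13; range -0.75 to 0.56) and -0.78 ± 0.20 in deltamethrin (SD, n = 18; range -1.11 to -0.33). Only 2 of 18 deltamethrin libraries lay above the control median. Without control replicate 2 the control mean was -0.57 ± 0.14 and the difference -0.21, against -0.29 with it. Over all 13 controls none of the 4 ratios differed by more than 1 SD of the control libraries, and without control replicate 2 the Mthfd1l to Mthfd1 ratio did. Shmt2 to Shmt1 was 2.18 ± 0.33 and 2.28 ± 0.30, Mthfd2 to Mthfd1 -2.13 ± 0.23 and -2.23 ± 0.21, and Mtrr to Mtr -0.16 ± 0.31 and -0.19 ± 0.29, control first.

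Other genes of the pathway were taken from lists of 51 genes, of which 46 passed the filter. Ftcd, Folr2, Mat1a, Bhmt and Bhmt2 did not, with at most 13 counts in any library. None of the 46 had an adjusted p under 0.05 (edgeR, DESeq2 and limma voom), against 0% of all genes, and 1 had an unadjusted p under 0.05, lower in deltamethrin, against 2.37% of all genes in that direction. DESeq2 gave 1 and limma voom 0 at that unadjusted threshold. With edgeR it was 2 under upper quartile factors, without a count filter or with the mitochondrial rRNA share as a covariate. The median log2 fold change was 0.0022, with 23 genes above 0 and 23 below (31 and 15 without scaling factors).

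**Figure D3:**
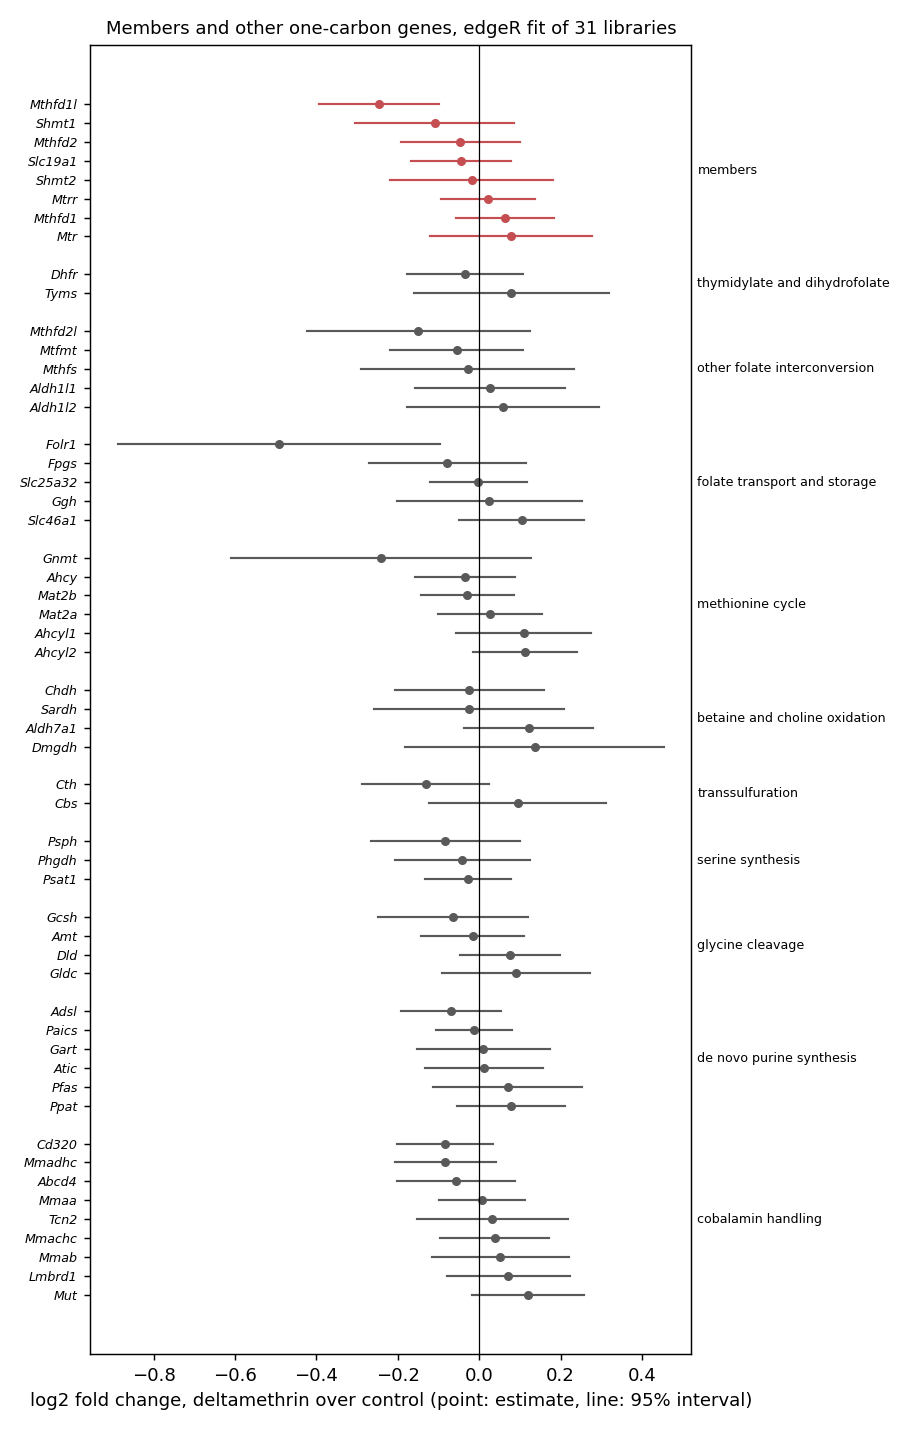
Log2 fold change, deltamethrin over control, of the 8 members (red) and the 46 tested genes of the pathway lists (grey), with 95% intervals from the edgeR fit of 31 libraries. The intervals of Mthfd1l (-0.39 to -0.098) and Folr1 (-0.89 to -0.096) lie below 0 and the other intervals cross it, and no gene passed adjustment over all genes.

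Folr1, the high-affinity folate receptor by which choroid plexus epithelium moves folate into cerebrospinal fluid, was the pathway gene with an unadjusted p under 0.05. It had 5.02 ± 2.52 CPM in control (SD, n = 13; range 2.19 to 9.57) and 3.49 ± 1.12 CPM in deltamethrin (SD, n = 18; range 1.91 to 5.95). The highest control libraries stood above every deltamethrin library, while the low ends overlapped. Its log2 fold change was -0.49 ± 0.20 (SE; unadjusted p = 0.0163, adjusted 0.813, edgeR). Of the choroid plexus markers 5 of 5 were lower as well (3 of 5 without scaling factors), none past adjustment. Their summed level ran from 262 to 1269 CPM in control and from 243 to 715 CPM in deltamethrin, most of it from Ttr. Ttr had a log2 fold change of -0.46, and Kl, Kcnj13, Clic6 and Otx2 had -0.073, -0.12, -0.10 and -0.039, with a median of -0.10 over the 5. Fitted with the mean of these markers as a covariate, Folr1 lay at -0.28 on the log2 scale (unadjusted p = 0.0124, adjusted 0.826, edgeR), and without control replicate 2 at -0.40.

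Each list is given by the gene with its smallest p-value, and every adjusted p named for these genes is from edgeR. In folate transport and storage the other tested genes were Slc46a1, Slc25a32, Fpgs and Ggh, with 2 of the 5 tested above 0. Thymidylate synthase, Tyms, had a log2 fold change of 0.079 ± 0.12 (SE). Mthfd2l, a mitochondrial relative of Mthfd2, had -0.15 ± 0.13, and -0.025 without control replicate 2. In its list of other folate interconversion 3 of the 5 tested genes lay below 0. In the methionine cycle 3 of 6 lay above 0, led by Ahcyl2, a relative of S-adenosylhomocysteine hydrolase, at 0.11 ± 0.06. Aldh7a1, which oxidises betaine aldehyde, had 0.12 ± 0.08 (0.075 without control replicate 2), and Cth, the cystathionine lyase of transsulfuration, -0.13 ± 0.08.

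The 3 genes of serine synthesis lay below 0 on the log2 scale (2 of 3 without scaling factors), with Psph, the final phosphatase, at -0.083 ± 0.09 (SE), and -0.038 without control replicate 2. Glycine cleavage had 2 of 4 above 0, with Dld at 0.075 ± 0.06, and de novo purine synthesis 4 of 6, with Ppat, its first enzyme, at 0.078 ± 0.07 (0.045 without control replicate 2). Cobalamin handling had 6 of 9 above 0, with Mut, the mitochondrial methylmalonyl-CoA mutase, at 0.12 ± 0.07. Without scaling factors, which put the median of all genes at 0.043, 31 of the 46 pathway genes lay above 0, with at most 1 more gene in each list. Adjusted p-values of these genes from Tyms to Mut ran from 0.813 to 0.881. ATF4, a stress-responsive transcription factor, is known to raise Mthfd2, Shmt2 and serine synthesis genes, and Atf4 itself with 12 of its targets outside the pathway was read beside them. None of the 13 had an unadjusted p under 0.05 (edgeR without covariates), and 6 lay above 0 and 7 below. The smallest p belonged to Ddit3 at -0.17 ± 0.10. With the mitochondrial rRNA share as a covariate Ddit3 had -0.15 (unadjusted p = 0.0339, edgeR), and no gene passed adjustment in that fit.

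Across the 31 libraries the members varied by different amounts. The coefficient of variation was 9.83% for Mtrr, 10.7% for Slc19a1, 10.99% for Mthfd1 and 12.8% for Mthfd2. It was 17.5% for Shmt1, 18.6% for Mthfd1l, 18.8% for Shmt2 and 19.6% for Mtr. Without control replicate 2 that of Mthfd1l was 10.96%, which put it among the less variable members, and the other 7 moved little (9.01% for Mtrr to 19.7% for Mtr). Counting error alone gives 12.2% for Shmt1, the member with the fewest counts, and 3.47% for Mthfd1, the member with the most. These coefficients lay between the 7.37th percentile of all tested genes for Mtrr and the 48.2th for Mtr. Control replicate 2 was the lowest library for Mthfd1, Shmt2 and Mtrr and the highest for Mthfd1l.

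The members were then correlated with each other on log2 CPM, 28 pairs over 31 libraries, with permutation p-values adjusted over the 28. In 7 pairs, each with a positive r, the adjusted p was under 0.05. How often pairs of other tested genes reach such an r was not computed, and Shmt2 had 0.938 with Hdgfl2, a gene outside the lists. Every one of the 7 but Mtrr with Mthfd1 joined members that also fell with the mitochondrial rRNA share (r from -0.787 to -0.514, below). The part of that share in these pairs was not tested. Among the members, Slc19a1 and Shmt2 varied most closely together (Pearson r = 0.745 and Spearman rho = 0.748). Both had a permutation p of 1e-05, the smallest that 100000 resamples can give, adjusted to 0.00014 for r and 0.00028 for rho. Their r was 0.728 without the 2 libraries farthest from the Shmt2 median, 0.627 within control and 0.884 within deltamethrin. Shmt2 and Mthfd1 followed (r = 0.713, permutation p = 1e-05, adjusted 0.00014; rho = 0.661, permutation p = 6e-05, adjusted 0.00084), with r = 0.724 when the 2 libraries farthest from the Mthfd1 median were dropped, 0.881 in control and 0.617 in deltamethrin.

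Mtr and Shmt1 had r = 0.546 (permutation p = 0.00144, adjusted 0.00994; rho = 0.604, permutation p = 0.0003, adjusted 0.0028), 0.539 when the 2 libraries farthest from the Shmt1 median were dropped, 0.630 in control and 0.570 in deltamethrin. The other 4 pairs joined Mthfd1 to Slc19a1 (r = 0.539, rho = 0.570), Shmt1 (r = 0.536, rho = 0.537), Mtr (r = 0.535, rho = 0.493) and Mtrr (r = 0.448, rho = 0.457). Permutation p-values of those 4 ran from 0.00178 to 0.0116 for r and from 0.00076 to 0.01004 for rho, and adjusted ones from 0.00994 to 0.0463 for r and from 0.00532 to 0.0402 for rho. Without the 2 libraries farthest from the Mthfd1 median their r was 0.408 to 0.480, with adjusted p-values from 0.0564 to 0.0977. Mtrr with Mthfd1 had an r about as large as before (0.452), and Mtr with Mthfd1 the lowest. Mtrr with Mthfd1 had r = 0.325 without control replicate 2. Within control their r ran from 0.305 to 0.626 and within deltamethrin from 0.441 to 0.646. Mthfd1l was in none of the 7 pairs, and its r with the other members ran from -0.384 with Mtr to 0.319 with Mthfd2, or from -0.445 to 0.373 with the same genes when control replicate 2 was left out.

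**Figure D4:**
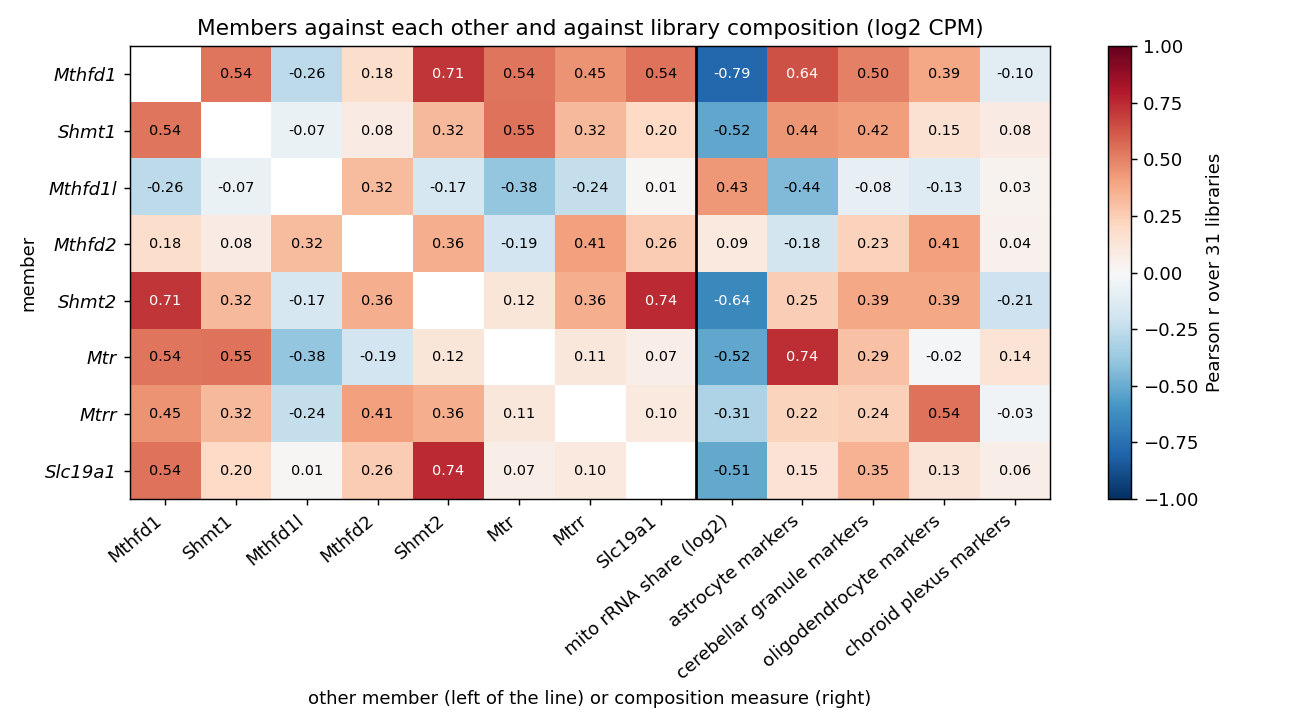
Pearson r over 31 libraries on log2 CPM between the members (left of the line) and of each member with 5 measures of library composition (right). Slc19a1 with Shmt2 (0.74) and Mthfd1 with Shmt2 (0.71) are the highest values between members, and Mthfd1 with the mitochondrial rRNA share (-0.79) the lowest value shown.

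Library composition moved with these genes. Over 8 members and 5 measures, 40 relations in all, 9 had an adjusted p under 0.05. The share of all tested genes that follow these measures was not computed, so this count does not set the members apart from other genes. Mthfd1 was lower in libraries with a larger mitochondrial rRNA share on the log2 scale (r = -0.787, rho = -0.746, each permutation p = 1e-05, adjusted 0.0004), with r = -0.729 when the 2 most extreme shares were left out, -0.830 in control and -0.780 in deltamethrin. Shmt2 (r = -0.644, rho = -0.537), Mtr (r = -0.519, rho = -0.582), Shmt1 (r = -0.518, rho = -0.549) and Slc19a1 (r = -0.514, rho = -0.547) did so too. Their permutation p ran from 9e-05 to 0.00313 for r and from 0.00082 to 0.00211 for rho, and their adjusted p from 0.0012 to 0.0157 for r and from 0.0082 to 0.0106 for rho. Without the 2 farthest libraries their r ran from -0.642 to -0.493. Within control it ran from -0.776 to -0.214 and within deltamethrin from -0.773 to -0.425.

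For Mthfd1l r was 0.434 (permutation p = 0.0159, adjusted 0.0516; rho = 0.129, permutation p = 0.485), 0.123 without control replicate 2 and -0.18 without scaling factors. Mthfd2 (r = 0.0938, permutation p = 0.617, adjusted 0.747) and Mtrr (r = -0.308, permutation p = 0.0907, adjusted 0.191) also missed the threshold, with r = 0.0564 and -0.103 without control replicate 2.

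**Figure D5:**
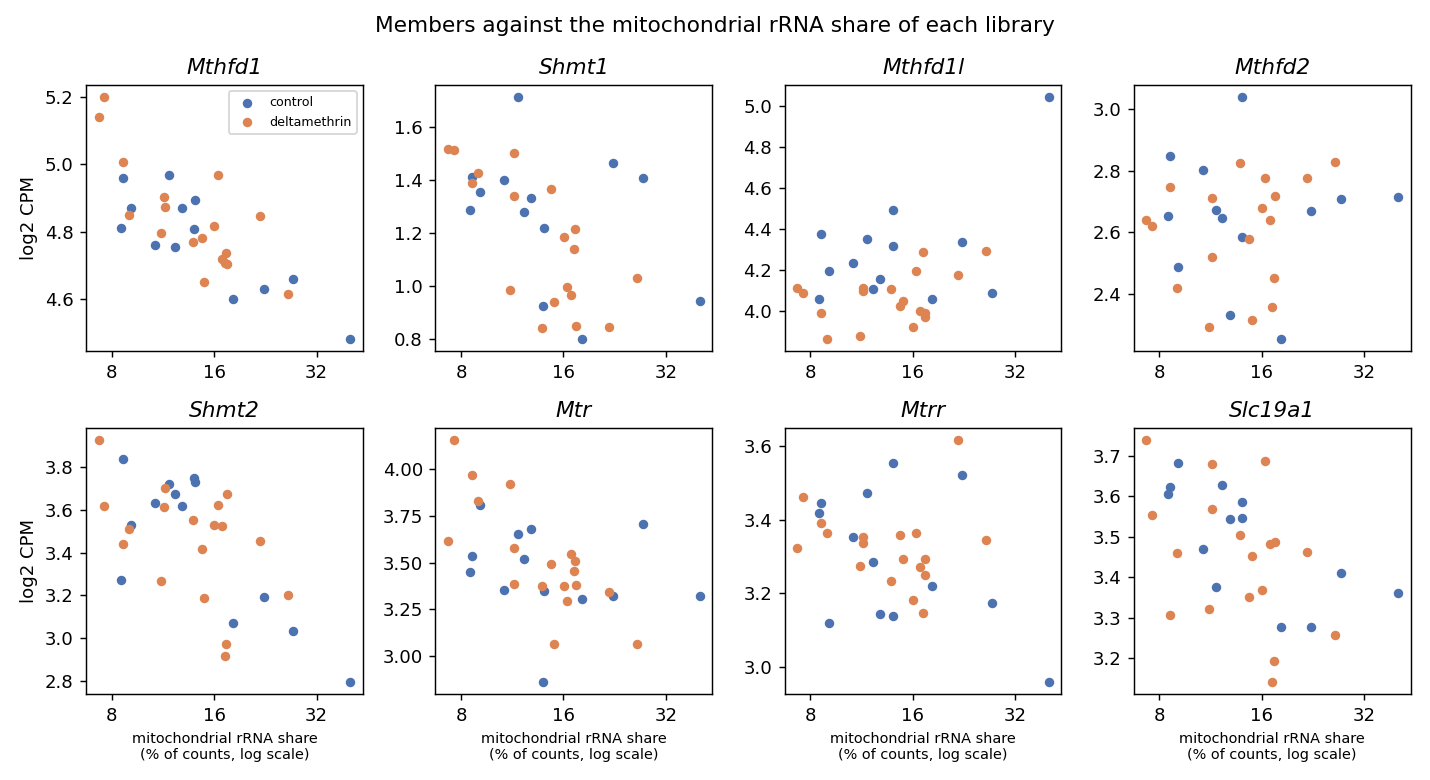
Log2 CPM of each member against the share of counts taken by mitochondrial rRNA (log axis), 1 point per library, 13 control and 18 deltamethrin. Mthfd1 declines with the share (r = -0.79), and the Mthfd1l point at the upper right is control replicate 2, with a share of 40.2%.

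Marker genes of cell types gave the remaining 4 relations. Mtr followed the astrocyte markers (r = 0.739, rho = 0.740, each permutation p = 2e-05, adjusted 0.0004), with r = 0.659 when the 2 libraries farthest from the marker median were dropped, 0.419 in control and 0.878 in deltamethrin. Mthfd1 followed them as well (r = 0.637, permutation p = 0.00019, adjusted 0.0019; rho = 0.588, permutation p = 0.00077; r = 0.702 without the 2 farthest, 0.730 within control, 0.568 within deltamethrin). It also followed the cerebellar granule cell markers (r = 0.501, permutation p = 0.00478, adjusted 0.0212; rho = 0.521, permutation p = 0.00329; r = 0.472 without the 2 farthest, 0.587 within control, 0.399 within deltamethrin). Shmt1 and the astrocyte markers missed the threshold by r (0.440, permutation p = 0.0127, adjusted 0.0509) and passed it by rho (0.541, permutation p = 0.00197, adjusted 0.0106). Mtrr followed the oligodendrocyte markers (r = 0.543, permutation p = 0.00163, adjusted 0.0130; rho = 0.530, permutation p = 0.00245; r = 0.567 without the 2 farthest, 0.686 within control, 0.404 within deltamethrin).

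These markers were spread as follows. The 5 astrocyte markers summed to 1362 to 2538 CPM in control and 1316 to 4327 CPM in deltamethrin, with 5 of 5 higher in deltamethrin and none past adjustment (edgeR). The 5 cerebellar markers summed to 51.4 to 439 CPM and 86.3 to 562 CPM, also 5 of 5 higher, and the 5 oligodendrocyte markers to 3871 to 5693 CPM and 4065 to 6390 CPM, with 2 of 5 higher (3 of 5 without scaling factors). The part of cell composition in the levels of the members was not tested. The mean of the 5 choroid plexus markers gave no relation past adjustment with any of the 8 members.

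Promoter windows of 300 bases were read for all 8 members from RefSeq on GRCm38.p6, from 250 bases before the start to 50 after it. Shown are Shmt2 with its 2 closest partners among the members across libraries, Slc19a1 and Mthfd1, and then Mthfd1l, which was in none of the correlated pairs. Capitals mark matches, on either strand, to the NRF1 consensus core, the CCAAT box CCAAT or the Sp1 GC box GGGCGG. The windows are chr10:127522395-127522694 on the minus strand (Shmt2), chr10:77032489-77032788 on the plus strand (Slc19a1, the first of 2 starts), chr12:76254982-76255281 on the plus strand (Mthfd1) and chr10:3972825-3973124 on the plus strand (Mthfd1l), each printed 5′ to 3′ along its gene.
Shmt2: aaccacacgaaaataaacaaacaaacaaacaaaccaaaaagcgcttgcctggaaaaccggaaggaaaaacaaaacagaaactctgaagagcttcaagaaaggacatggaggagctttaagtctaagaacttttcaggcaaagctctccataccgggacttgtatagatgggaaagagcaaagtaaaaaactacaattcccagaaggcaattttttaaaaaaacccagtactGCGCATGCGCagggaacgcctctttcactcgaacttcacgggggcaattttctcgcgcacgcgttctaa
Slc19a1: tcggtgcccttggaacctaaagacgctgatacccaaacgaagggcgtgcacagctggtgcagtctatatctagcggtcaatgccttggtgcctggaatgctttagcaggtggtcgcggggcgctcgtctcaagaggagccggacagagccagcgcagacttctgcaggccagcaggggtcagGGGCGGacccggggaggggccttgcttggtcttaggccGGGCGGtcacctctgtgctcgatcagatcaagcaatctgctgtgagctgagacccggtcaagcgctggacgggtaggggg
Mthfd1: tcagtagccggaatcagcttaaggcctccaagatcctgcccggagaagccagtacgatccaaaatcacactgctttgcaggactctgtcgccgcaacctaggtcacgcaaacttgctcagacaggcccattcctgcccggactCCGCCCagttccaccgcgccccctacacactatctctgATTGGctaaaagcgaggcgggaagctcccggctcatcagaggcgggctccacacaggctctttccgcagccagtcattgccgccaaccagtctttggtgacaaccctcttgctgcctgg
Mthfd1l: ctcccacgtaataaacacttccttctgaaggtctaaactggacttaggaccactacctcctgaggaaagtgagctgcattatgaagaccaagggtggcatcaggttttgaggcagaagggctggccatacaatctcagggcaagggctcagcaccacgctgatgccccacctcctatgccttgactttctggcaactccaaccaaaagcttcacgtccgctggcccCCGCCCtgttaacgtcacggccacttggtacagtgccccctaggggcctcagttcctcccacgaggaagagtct

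The Shmt2 window held the NRF1 core, read the same on both strands, a motif found at many nuclear genes for mitochondrial proteins, starting 19 bases before the transcription start. This motif was in 2.27% of 32851 promoter windows and, among the members, also in Mtrr. The Slc19a1 window shown held 2 GC boxes and the window of its second start no motif of this set. Mthfd1 held a CCAAT box and a GC box, and Mthfd1l 1 GC box, letters that occur in 37.4% (CCAAT) and 35.7% (GGGCGG) of windows. No motif of this set was in the windows of Shmt2, Slc19a1 and Mthfd1 alike. The amino acid response element TGATGNAA, bound by ATF4, was in no member window and in 3.97% of all windows, and the E-box CACGTG was in none and in 7.15%. GC content was 42.7% in the Shmt2 window and 55.3% to 62.3% in the other 3, against a median of 52.7% over all windows.

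For each member the 2 tested genes with the most similar profile over 31 libraries were found by Pearson r on log2 CPM, as a description. Shmt2 was most like Hdgfl2 (r = 0.938) and Ano8 (r = 0.932), and Mtr most like Cyfip1 (r = 0.917) and Ank3 (r = 0.916). Mthfd1 was closest to Ttll12 (r = 0.887) and Clcn7 (r = 0.885), Mthfd1l to Gpatch2l (r = 0.867) and Rab10os (r = 0.831), and Slc19a1 to Smtn (r = 0.815) and Mad1l1 (r = 0.783). Lower values were found for Shmt1, with Dsp (r = 0.741) and Iars (r = 0.724), Mtrr, with Gm28901 (r = 0.712) and Tnfrsf1a (r = 0.692), and Mthfd2, with Tpra1 (r = 0.695) and Resp18 (r = 0.683). Rab10os is annotated as an antisense RNA, so its counts are uncertain where strand was not used. All these profiles share the libraries, their depth and their composition, and r differed between the groups in both directions. Gpatch2l and Rab10os had 0.924 and 0.931 within control, which includes control replicate 2, and 0.774 and 0.602 within deltamethrin. Gm28901 was also lower within deltamethrin (0.772 and 0.609, control first), while Cyfip1 (0.857 and 0.952) and Ank3 (0.851 and 0.956) were higher.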

How the data were processed

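RNA from aliquots of homogenised, hemisected brain was extracted with a column kit and sequenced on an Illumina NovaSeq, per the labels' protocols. The authors deposited raw counts per Ensembl gene, whole numbers without normalization. The submitters' processing notes name Trimmomatic, HISAT2, SAMtools, MultiQC and GRCm38. The counting tool, annotation and use of strand are not given in the sources used here. Groups come from the agent label, and replicate numbers follow accession order and pair nothing. Gene positions and exon lengths are those of GENCODE M21 (GRCm38), matched by ID (48435 of 48795).

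Counts were filtered with filterByExpr (minimum count 10, minimum total 15), scaled by TMM and tested with edgeR 4.0.16 (R 4.3.3), quasi-likelihood, with robust=TRUE and without covariates, and Benjamini-Hochberg adjustment over 19529 genes. Standard errors were derived from the log2 fold changes and F statistics. Log2 CPM has a prior count of 2. Correlations used two-sided permutation tests with 100000 resamples. DESeq2 1.42.0, limma 3.58.1 voom, other scaling, filters, covariates and leaving out each library were alternatives. The choroid plexus and cerebellar covariates and the values without control replicate 2 (correlations, ratios, spread, pathway genes) were added after seeing the data. The members, lists and motifs were chosen with earlier results of these data known. Named are all members, per list the gene with the smallest p and any with an unadjusted p under 0.05, and the 2 most similar genes of each member. Slc46a1, Slc25a32, Fpgs, Ggh, Atf4, the choroid plexus markers and the genes below the filter were named after their values were seen. A gene of the folate interconversion list is not reported here. The fit and the permutation test were tested on simulated data. At an adjusted p under 0.05 the edgeR fit called 94% of genes simulated at a fold of 2 and 68% at 1.5. It called 24% at 1.25 and 29.2% at 0.8, so changes of that size can be missed. The simulation changed 50 genes at each of these folds and drew libraries without differences in composition. In the data no gene was called and composition varied, so the rates there may be lower.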

Additional observations from a re-analysis of the deposited data

How the results depend on the processing

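No member and no pathway gene had an adjusted p under 0.05 (edgeR, DESeq2 or limma voom as each setting states) under other scaling factors, count filters, tools, covariates, an adjusted threshold of 0.1 or when any 1 library was left out, and Mthfd1l was the member with an unadjusted p under 0.05 in each of these fits. Its log2 fold change ran from -0.25 to -0.18 over the other settings and from -0.26 to -0.17 when 1 library was left out, with control replicate 2 giving the value nearest 0. Its unadjusted p was at most 0.00607 (no scaling factors). Shmt2 lay near 0 and changed sign without scaling factors (0.0060), and ran from -0.062 to 0.021 when 1 library was left out. Mtrr ran from -0.0020 to 0.046 when 1 library was left out, below 0 only without control replicate 2. The cause of these changes of sign was not tested. The other 6 members kept their sign in all settings run. Without scaling factors 20 of the 28 pairs of members had an adjusted p under 0.05, and 22 of the 40 relations with composition, against 7 and 9; without the 2 libraries farthest from the median the pairs numbered 3 and the relations with composition 12. No paired analysis was possible because replicate numbers follow accession order and pair nothing. Depth limits Shmt1 most, with 20 to 116 counts.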
